A study of Homo sapiens with 6 samples.

Results

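Integrins, laminins and collagens were examined in SKBR3, a HER2-positive human breast adenocarcinoma line, with and without extra CTTN. The members were genes of 3 families, selected by symbol: integrin alpha and beta subunits (24 genes), laminin alpha, beta and gamma chains (12 genes) and collagen chains (44 genes). The set does not hold every gene of the families. This gave 80 of the 54644 genes in the deposited gene table. SKBR3 cells that stably carried the empty lentiviral pLVX vector (Con, 3 libraries) were compared with SKBR3 cells that stably carried the same vector with human CTTN cDNA (CTTN, 3 libraries), to find transcripts that differ when CTTN, the gene for the actin-binding protein cortactin, is overexpressed. The extraction protocol of the samples also mentions tumors, while the study's methods describe cultured cells, and which applies was not settled here. Both lines were selected with puromycin, and the labels do not say whether either is a clone. The sequencing was of polyadenylated RNA. The 6 libraries held 34887100, 41279700 and 37751100 assigned fragments in Con 1, 2 and 3 and 35583100, 36531300 and 35478900 in CTTN 1, 2 and 3. The control libraries are numbered here as in the deposited sample table. The series calls them biological replicates without saying whether they came from separate cultures or infections, so the p-values measure only the spread between these libraries, which may be technical.

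Integrins are receptors made of an alpha and a beta subunit that span the plasma membrane, bind matrix proteins or ligands on other cells outside and connect to the actin cytoskeleton inside. Laminins are cross-shaped trimers of an alpha, a beta and a gamma chain that form a sheet in the basement membrane under epithelia, where a network of collagen IV lies beside them. Other collagens form fibrils, decorate fibrils, or span the membrane, and each is a trimer of chains that must be made in the same cell. Breast epithelium normally contacts a laminin-rich basement membrane through integrins, and its fibrillar collagens come mostly from fibroblasts of the stroma.

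The introduced gene was used to check the labels. CTTN was at 104, 108 and 108 FPKM (fragments scaled by transcript length and library size, a level that can be compared between genes) in Con 1, 2 and 3 and at 263, 329 and 179.8 FPKM in CTTN 1, 2 and 3. Every CTTN library was above every Con library, with CTTN 3 the lowest of its group. The log2 fold change was 1.35 ± 0.22 (SE), 2.55-fold, with an adjusted p of 0.0248 in edgeR's quasi-likelihood test with Benjamini-Hochberg adjustment over all genes tested. The adjusted p for CTTN itself was between 0.121 and 0.154 without Con 1, Con 2, Con 3 or CTTN 1.

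Of 10 markers of the labelled cell type, luminal HER2-positive breast epithelium, 9 were at 1 FPKM or more. KRT8 was the most abundant at 1849 FPKM on average in Con, and ERBB2 was at 1646, 1671 and 1708 FPKM in Con 1, 2 and 3 and 1782, 1790.3 and 1644 FPKM in CTTN 1, 2 and 3. The exception was CDH1, the epithelial cadherin, whose level was between 0.0501 and 0.244 FPKM in the 6 libraries. None of the 10 markers was called in the planned fit. With the length offset described below 3 were higher and 1 lower in edgeR, against 9.83% and 8.87% of all genes. ERBB2 (0.27, adjusted p of 0.0152), KRT19 (0.22, 0.0285) and GATA3 (0.32, 0.0236) were higher and KRT18 (-0.37, 0.00389) was lower. Of the defining fibroblast markers DCN, LUM and POSTN, no library had more than 0.0943 FPKM, and the summed fibroblast list was 34.1, 38.8 and 36.4 FPKM in Con and 34.7, 37.5 and 40.7 FPKM in CTTN, nearly all from the row of PDGFRA, which is merged with FIP1L1. PTPRC, the pan-leukocyte marker, stayed between 0.0166 and 0.199 FPKM. The summed leukocyte list, 608, 634 and 610 FPKM in Con and 755, 622 and 859 FPKM in CTTN, came almost entirely from the row of CD68, which is merged with EIF4A1. Basal or myoepithelial markers summed to 2.97, 3.28 and 3.39 FPKM in Con and 3.77, 4.69 and 4.20 FPKM in CTTN, with TP63 the largest part in each library and KRT14 under 0.12 FPKM. TP63 and ACTA2 were higher in each CTTN library, with log2 fold changes of 0.39 and 1.39 (adjusted p of 0.123 and 0.0595) and of 0.60 and 1.14 (adjusted p of 0.00304 and 0.0454) with the length offset described below, in edgeR. The 5 endothelial markers summed to 4.20, 4.66 and 4.20 FPKM in Con and 1.73, 2.19 and 1.57 FPKM in CTTN, nearly all from CDH5, which fell with an adjusted p of 0.00843 in edgeR. PECAM1 and TEK were under 0.03 FPKM in each library. In bulk RNA, fewer cells of a type and less RNA per cell cannot be told apart. The part of other cell types in the results was not tested.

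The libraries differed in how reads were spread over transcripts of different length, which bears on families whose transcripts are long. Median transcript length was 4047 bases over the 45 members with enough fragments to test and 2350 bases over all 14409 genes tested. Relative to the Con mean, the median log2 ratio of genes with transcripts over 8 kb was -0.58 in CTTN 1, -0.02 in CTTN 2 and -0.96 in CTTN 3. For transcripts under 1 kb the same ratio was 0.35 in CTTN 1, 0.01 in CTTN 2 and 0.80 in CTTN 3. CTTN 1 and CTTN 3 thus had fewer reads from long genes and more from short ones, CTTN 3 the more so, while CTTN 2 lay with the Con libraries, which stayed between -0.08 and 0.07 at both ends. The summed FPKM followed, at 624680, 609489 and 603634 in Con and 704018, 605260 and 852256 in CTTN, so fold changes and p-values rest on counts (CPM, counts scaled to a common library size by TMM), and FPKM values, given for the level of genes and start groups, carry this difference between libraries. A second fit with an offset for transcript length, chosen after seeing these values, is given beside the planned fit, and the cause of the trend was not tested.

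**Figure D1:**
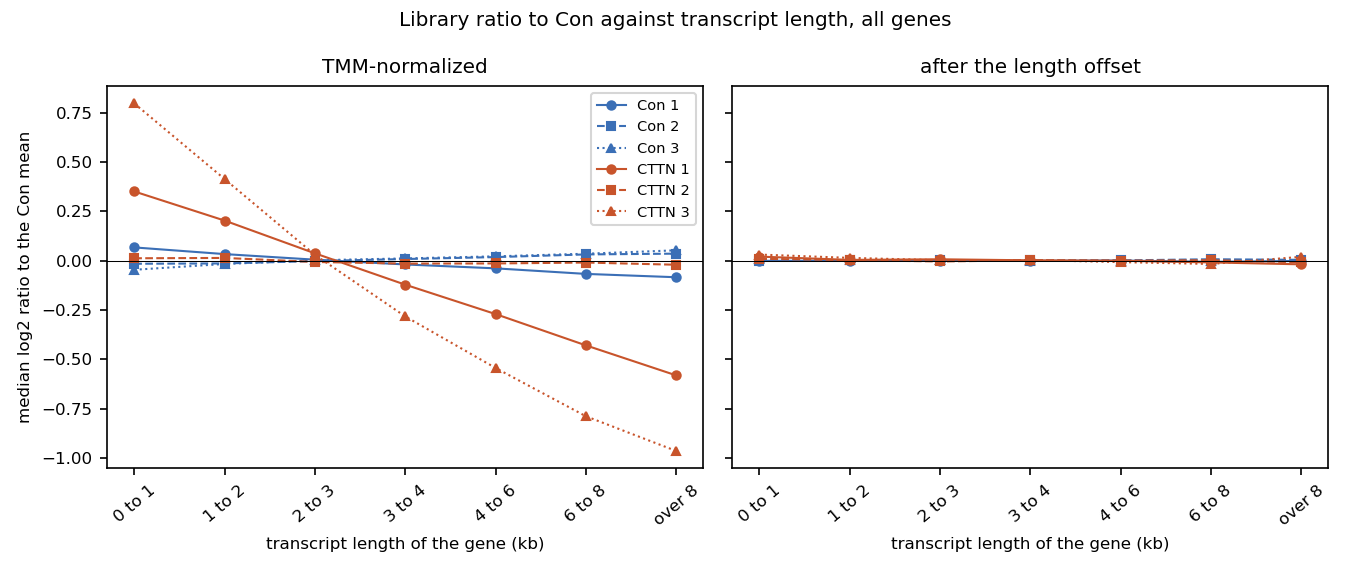
Median log2 ratio of each library to the Con mean (y axis) for genes grouped by transcript length in kb (x axis), before (left) and after (right) the length offset. Before it, CTTN 1 and CTTN 3 slope down to -0.58 and -0.96 over 8 kb and CTTN 2 stays near 0, and after it all 6 lines lie near 0.

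Of the 80 members, 45 were tested, 3 were called at an adjusted p under 0.05 and the rest were not. The called members were COL26A1, which was higher in CTTN, and ITGAL and LAMB3, which were lower, 1 in each family. Over all 14409 genes tested the same rule called 643 genes, or 4.46%, of which 350 were higher (2.43%) and 293 lower (2.03%), and 3 of 45 is 6.67%. With at least a 1.5-fold difference required as well, 2 members were called, against 3.32% of all genes. The median log2 fold change was -0.14 over the tested members and 0.01 over all genes tested, and 28 of the 45 members had a negative value. With the length offset, which by its construction brings genes of each length near 0, 22 members were positive and 23 negative, with a median near 0. By family, 5 integrins were positive and 11 negative, against 2 and 4 laminins and 15 and 8 collagens. That fit called 15 members, 11 higher and 4 lower, against 2695 of all genes (18.7%), with 9.83% higher and 8.87% lower. Of the 15, 6 also reached 1.5-fold, against 5.32% of all genes. Groups did not overlap for 19 of the 45 members in the planned fit (38.8% of all genes) and for 22 with the offset (41.5% of all genes). CTTN 2 alone against Con, where the lone library is assumed to vary like the others, called 15 of 51 members tested, 9 higher and 6 lower, against 14.9% of all genes (7.53% higher and 7.4% lower). The 15 members of either of these 2 fits include the row named for ITGA1, which is mostly another gene (below), and number 14 without it.

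These counts depend on single libraries. Calls over all genes numbered 29, 15 and 16 without Con 1, Con 2 and Con 3, 32 without CTTN 1, 6925 without CTTN 2 and 1252 without CTTN 3. For the members the same 6 fits gave 0 calls without Con 1, Con 2, Con 3 or CTTN 1. In these 4 fits edgeR had 8 of 45, 11 of 47, 11 of 46 and 9 of 46 members at an unadjusted p under 0.05. The shares of all genes there were 18.8%, 15.9%, 16.9% and 17.9%. Without CTTN 2, 18 of 47 members were called, against 47.1% of all genes. Without CTTN 3, 10 of 47 were called, against 8.55% of all genes. DESeq2 on all 6 libraries called 8 members, the ITGA1 row among them, against 14.4% of all genes. Limma on log2 FPKM called 0, with 12 members at an unadjusted p under 0.05 (23.6% of all genes), so that the 3 calls did not hold on that scale.

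**Figure D2:**
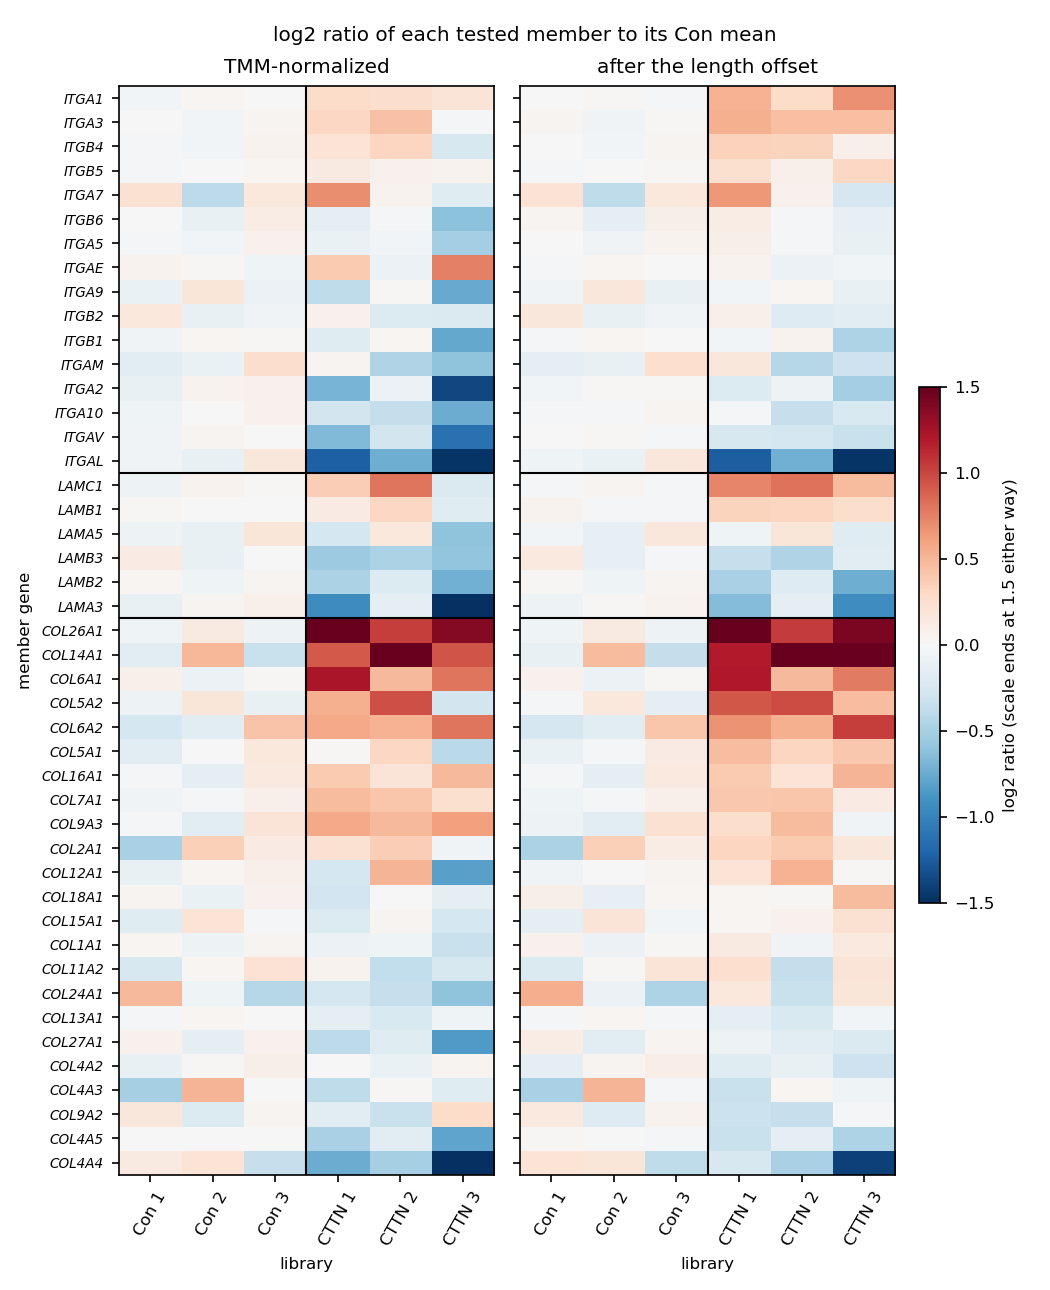
Log2 ratio of each of the 45 tested members (rows, by family) to its Con mean in each library (columns), from TMM-normalized values (left) and after the length offset (right), red above and blue below the Con mean. In the left panel many long genes are blue in CTTN 3 and less so in CTTN 1. The right panel shows these at paler shades. ITGAL is blue and COL26A1 and COL14A1 are red in each CTTN library of both panels, but the offset hardly changes ITGAL and COL26A1.

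Of the 24 integrin genes, 16 were tested and 2 had no fragment in any library, where 0 fragments allows up to 3, or 0.0860 CPM in the least deep library. The other 6 untested genes had between 1 and 43 fragments over the 6 libraries. In Con, 12 integrins were at 1 FPKM or more and 4 at 10 FPKM or more, and counted by near-full-length transcripts, those at least 70% as long as the longest, 8 were at 1 FPKM or more. In the planned fit 1 integrin was called, lower, and 3 of 16, the ITGA1 row among them, passed an unadjusted p under 0.05, against 30.2% of all genes tested. The median log2 fold change of the tested integrins was -0.22, and -0.04 with the length offset. Groups did not overlap for 5 of 16 integrins, 2 higher, 1 of them the ITGA1 row, and 3 lower, against 38.8% of all genes tested.

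Beta subunits set which alpha partners are possible. ITGB5, which pairs with ITGAV to bind vitronectin, was the most abundant integrin at 45.2, 51.3 and 54.2 FPKM in Con 1, 2 and 3 and 55.8, 54.5 and 52.1 FPKM in CTTN 1, 2 and 3. ITGB1, the common partner of most matrix-binding alpha subunits, was at 22.6, 24 and 24.3 FPKM in Con and 19.4, 25.7 and 13.8 FPKM in CTTN. CTTN 3 was lowest for ITGB1 and the groups overlapped for it. ITGB6, an epithelial partner of ITGAV whose row also carries a noncoding RNA, was at 4.13, 3.92 and 4.6 FPKM in Con and 3.57, 4.49 and 2.45 FPKM in CTTN. ITGB3 (a row merged with EFCAB13) had 2 fragments in all and ITGB8 34, so among the 5 beta partners of ITGAV these 2 were close to absent at this depth. In CPM, ITGB5 was 159, 165 and 168 in Con and 178, 172 and 169 in CTTN. The 3 CTTN libraries were higher, by little, with a log2 fold change of 0.08 ± 0.07 (SE) and an adjusted p of 0.414 in edgeR, and of 0.21 ± 0.06 (SE) with an adjusted p of 0.0454 under the length offset. ITGB1 did not pass either fit, with adjusted p values of 0.336 and 0.428 in edgeR.

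ITGAV, the alpha subunit that recognizes the RGD motif of vitronectin and fibronectin and activates latent TGF-beta, had 102, 110.0 and 108 CPM in Con 1, 2 and 3 and 66.8, 88.3 and 48.5 CPM in CTTN 1, 2 and 3. Each CTTN library was lower than each Con library, CTTN 2 the least and CTTN 3 the most. The log2 fold change was -0.65 ± 0.20 (SE) with an adjusted p of 0.0982 in edgeR. Its transcript is 7030 bases long, and after the length offset the values were 92.7, 93.5 and 90.7 CPM in Con and 78.3, 77 and 73.2 CPM in CTTN. On that scale the 3 CTTN libraries were close to each other, and ITGAV fell, with a log2 fold change of -0.28 ± 0.05 (SE) with an adjusted p of 0.00758. ITGA5, the other RGD-binding subunit tested, which pairs with ITGB1 as the main fibronectin receptor, was at 7.11, 6.8 and 7.17 FPKM in Con and 8.94, 6.74 and 5.98 FPKM in CTTN, with overlapping groups and log2 fold changes of -0.20 in the planned fit and -0.01 with the offset.

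The laminin-binding subunits in this set were ITGA3 and ITGA7. ITGA3, which with ITGB1 binds the laminins of epithelial basement membranes, had 45.5, 44.4 and 47.3 CPM in Con and 56.3, 62.1 and 44.6 CPM in CTTN. CTTN 1 and 2 were above all Con libraries and CTTN 3 lay among them. The log2 fold change was 0.26 ± 0.12 (SE) with an adjusted p of 0.202 in edgeR. After the length offset the values were 43.2, 40.4 and 42.6 CPM in Con and 60.9, 57.7 and 57.6 CPM in CTTN, all 3 CTTN libraries higher, and ITGA3 rose by 0.48 ± 0.05 (SE) on the log2 scale with an adjusted p of 0.00113. ITGA7 was low at 0.39, 0.297 and 0.211 FPKM in Con and 0.563, 0.509 and 0.314 FPKM in CTTN, with overlapping groups. ITGB4, the hemidesmosome subunit, was named after its values were seen and was at 6.41, 5.7 and 6.36 FPKM in Con and 9.62, 7.29 and 10.1 FPKM in CTTN, a log2 fold change of 0.11 with an adjusted p of 0.593 in edgeR and 0.056 with the offset.

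Collagen-binding subunits all pair with ITGB1. ITGA2 was the main one, with 19.5, 22 and 22.4 CPM in Con and 13, 20.1 and 8.08 CPM in CTTN. CTTN 1 and CTTN 3 lay well below the Con libraries and CTTN 2 among them, so the groups overlapped, with a log2 fold change of -0.62 ± 0.28 (SE) and an adjusted p of 0.184 in edgeR. After the length offset all 3 CTTN libraries were lower, at 17.6, 18.4 and 18.4 CPM in Con and 15.7, 17.3 and 12.8 CPM in CTTN, with a log2 fold change of -0.24 ± 0.10 (SE) and an adjusted p of 0.132. The row named for ITGA1 is merged with PELO, a ribosome rescue factor whose gene lies inside ITGA1, and 89.3% of the row's FPKM in Con came from the PELO transcript. Its call under the length offset, a log2 fold change of 0.50 ± 0.10 (SE) with an adjusted p of 0.0103 in edgeR, is therefore not a measure of ITGA1. Near-full-length ITGA1 transcripts summed to 0.549, 0.512 and 0.511 FPKM in Con and 0.588, 0.882 and 0.441 FPKM in CTTN, with overlapping groups. ITGA10 was at 0.109, 0.113 and 0.137 FPKM in Con and 0.0942, 0.0986 and 0.0649 FPKM in CTTN, and ITGA11 had 1 fragment. ITGA9 was the alpha4/alpha9-type subunit tested, at 0.228, 0.254 and 0.176 FPKM in Con and 0.256, 0.338 and 0.168 FPKM in CTTN, while ITGA4 had 1 fragment and ITGA8 none.

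Leukocyte-type alpha subunits were also read in these epithelial cells. ITGAL, which with ITGB2 forms the receptor that binds ICAM proteins on other cells, lies at chr16:30472658-30523185 (GRCh38) and had 2.9, 2.82 and 3.44 CPM in Con 1, 2 and 3 and 1.27, 1.82 and 1.05 CPM in CTTN 1, 2 and 3. The 3 CTTN libraries were all below the 3 Con libraries. ITGAL fell, with a log2 fold change of -1.13 ± 0.22 (SE) with an adjusted p of 0.0384 in edgeR, and -1.13 ± 0.21 (SE) with an adjusted p of 0.00907 with the length offset. At its FPKM-weighted length the offset was close to 0, so an equal fold change in that fit was fixed in advance. Its log2 ratios to the Con mean in CTTN 1, 2 and 3 were -1.22, -0.73 and -1.47 before the offset. After it they were -1.23, -0.73 and -1.47. Without Con 1, Con 2, Con 3 or CTTN 1 the change was between -1.05 and -1.19 and the adjusted p between 0.148 and 0.182 in edgeR. Its level was low, 500 fragments over the 6 libraries, and spread over short and long transcripts, with 0.228, 0.292 and 0.423 FPKM in Con and 0.114, 0.17 and 0.0634 FPKM in CTTN from near-full-length ones. Its partner ITGB2 was at 1.81, 1.62 and 1.39 FPKM in Con and 1.68, 1.17 and 1.58 FPKM in CTTN, with overlapping groups in CPM and a log2 fold change of -0.12 (adjusted p of 0.571 in edgeR). ITGAM, another ITGB2 partner, was at 0.284, 0.249 and 0.297 FPKM in Con and 0.426, 0.331 and 0.186 FPKM in CTTN.

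ITGAE, known as the alpha subunit that lets mucosal lymphocytes bind E-cadherin, ranked second among integrins at 31.9, 30.5 and 29.9 FPKM in Con and 41.1, 30.6 and 51.8 FPKM in CTTN. Most of that level, 82.5% in Con, came from a transcript of 672 bases at 25.8, 24.6 and 25.7 FPKM in Con 1, 2 and 3 and 33.6, 25.9 and 45.4 FPKM in CTTN 1, 2 and 3. The near-full-length transcripts of ITGAE were at 0.0177 FPKM or less in each library, so the rank rests on short forms. For the 672-base form CTTN 3 was highest, CTTN 1 next, and CTTN 2 was close to the Con libraries. Its ITGB7 partner had 43 fragments in all. The gene-level log2 fold change of ITGAE was 0.39 in the planned fit and -0.03 with the length offset, with adjusted p values of 0.212 and 0.807 in edgeR. ITGAX had 1 fragment and ITGAD, whose row is merged with another transcript, none.

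**Figure D3:**
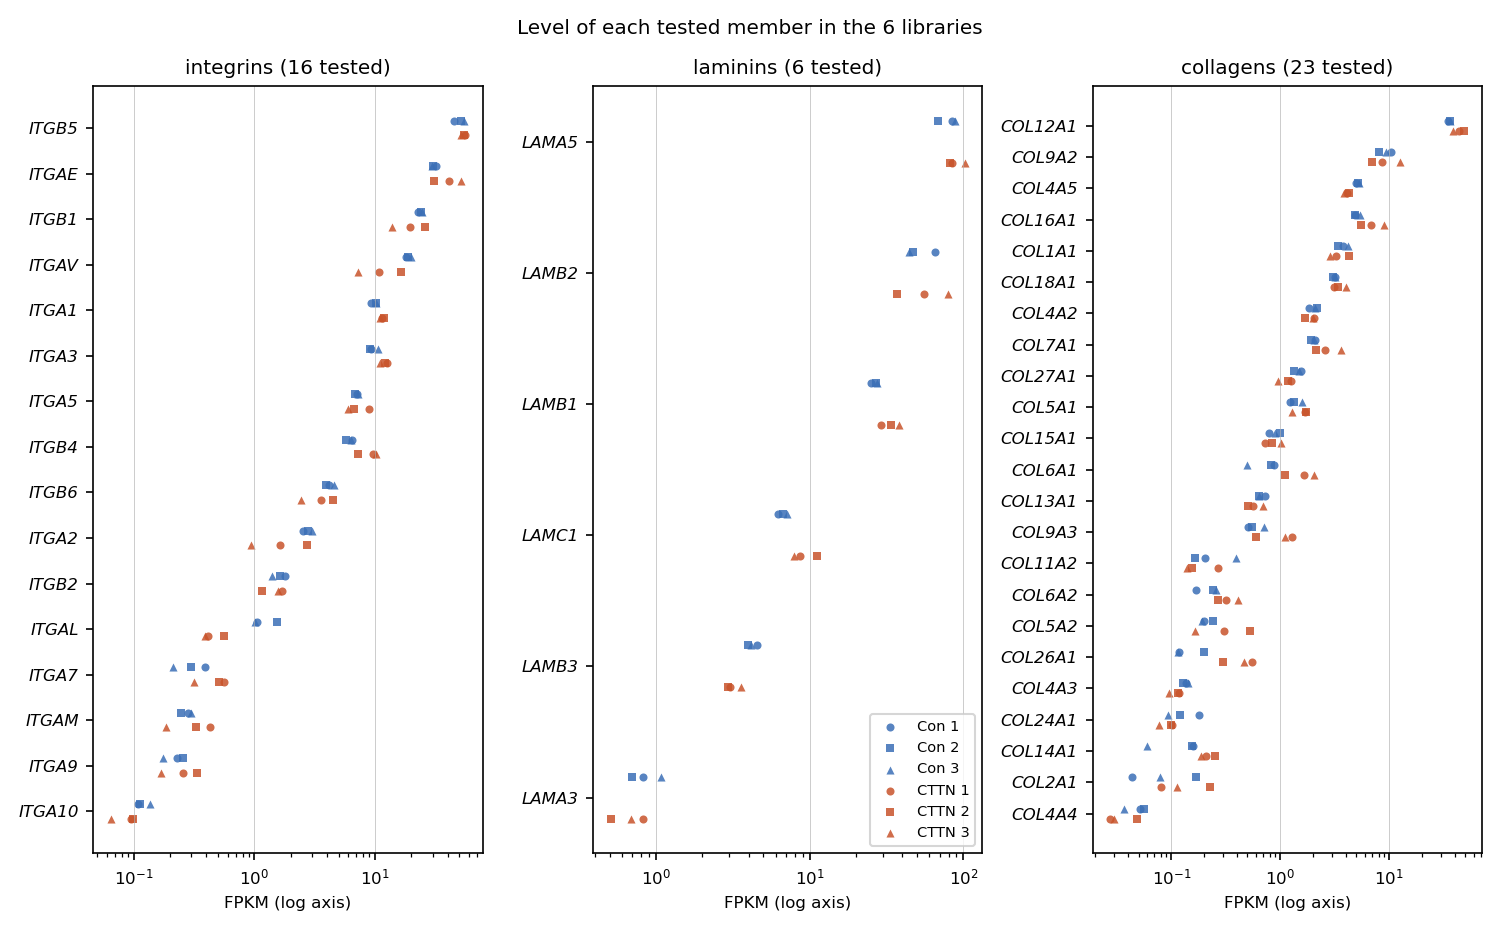
FPKM of each tested member (log x axis) in the 6 libraries (blue Con, orange CTTN, with 1 marker shape per library number), by family and ordered by the Con mean. ITGB5, LAMA5 and COL12A1 lead their families, and most members show Con and CTTN points that overlap or lie close.

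Laminin chains were measured for 12 genes, of which 6 were tested. LAMA4 had no fragment in any library and the other 5 untested chains had between 3 and 35. In Con, 5 laminins were at 1 FPKM or more, also when counted by near-full-length transcripts, and 3 at 10 FPKM or more. In the planned fit 1 laminin was called, lower, and 3 of 6 passed an unadjusted p under 0.05 (30.2% of all genes). The median log2 fold change was -0.33 over the 6 tested chains and -0.17 with the length offset, and 3 of the 6 had groups that did not overlap, against 38.8% of all genes tested.

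The chains of the laminins with LAMA5, LAMB1 or LAMB2, and LAMC1, those of many epithelial basement membranes, were the abundant ones. LAMA5, a row with MIR4758 in it, was at 84.8, 68.8 and 88.5 FPKM in Con 1, 2 and 3 and 83.7, 82.2 and 102 FPKM in CTTN 1, 2 and 3. Its full-length transcript of 11426 bases gave 22, 24.2 and 28.2 FPKM in Con and 18.3, 26.1 and 8.58 FPKM in CTTN, while a transcript of 780 bases gave 23.4, 13.9 and 18.2 FPKM in Con and 27, 18.1 and 56 FPKM in CTTN. CTTN 3 was the lowest library for the long form and the highest for the short one. The gene's log2 fold change was -0.21 ± 0.19 (SE) with an adjusted p of 0.455 in edgeR and -0.02 with the offset.

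LAMB1 was at 25.1, 27.2 and 27.3 FPKM in Con and 29.3, 33.6 and 38.1 FPKM in CTTN, and LAMB2 at 65.7, 47.1 and 44 FPKM in Con and 55.4, 36.8 and 78.8 FPKM in CTTN. In CPM, LAMB1 was 137, 136 and 137 in Con and 148, 169.5 and 119 in CTTN, and LAMB2 was 161, 152 and 166 in Con and 114, 139 and 95.5 in CTTN. The groups overlapped for LAMB1, with CTTN 3 lowest and CTTN 2 highest, whereas for LAMB2 all 3 CTTN libraries were below Con. LAMB2 had a log2 fold change of -0.45 ± 0.13 (SE) with an adjusted p of 0.0957 in edgeR. Under the length offset it was called, at -0.46 ± 0.11 (SE) with an adjusted p of 0.0278, but the offset hardly moved LAMB2. Its log2 ratios to the Con mean in CTTN 1, 2 and 3 were -0.47, -0.20 and -0.72 before and -0.49, -0.20 and -0.73 after. The length used was weighted by FPKM over short and long forms. With the offset, the start group of its 5643-base form was at -0.25 ± 0.07 (SE) with an adjusted p of 0.374 in edgeR. LAMB1 had 0.10 ± 0.13 (SE) with an adjusted p of 0.598, and rose by 0.31 ± 0.05 (SE) with an adjusted p of 0.00388 under the offset in edgeR. The beta chains, alternatives for the same place in the trimer, thus had opposite signs in both fits, and the difference between them was not tested.

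LAMC1, the gamma chain of nearly all these trimers, had 40.5, 44.7 and 43.6 CPM in Con and 54.9, 75.1 and 36.4 CPM in CTTN. CTTN 1 and 2 were above the Con libraries and CTTN 3 was below them. The log2 fold change was 0.38 ± 0.23 (SE) with an adjusted p of 0.28 in edgeR. With the length offset the values were 37.3, 38.8 and 37.4 CPM in Con and 62.7, 66.7 and 52.5 CPM in CTTN, all 3 CTTN libraries higher, and LAMC1 rose by 0.68 ± 0.09 (SE) with an adjusted p of 0.00172. In FPKM, LAMC1 was at 6.17, 6.66 and 7.1 in Con and 8.71, 11.1 and 7.86 in CTTN, so the place of CTTN 3 against Con depended on the scale.

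LAMB3, a beta chain of epithelial laminins, lies at chr1:209614870-209652466 (GRCh38), in a row that also holds MIR4260. It had 20.2, 17.4 and 18.8 CPM in Con 1, 2 and 3 and 12.8, 13.6 and 12.3 CPM in CTTN 1, 2 and 3. All 3 CTTN libraries lay below all 3 Con libraries, with little spread within a group. LAMB3 fell, with a log2 fold change of -0.54 ± 0.10 (SE) with an adjusted p of 0.030 in edgeR. The change was -0.33 ± 0.10 (SE) with an adjusted p of 0.0527 under the length offset, which missed the threshold, and without Con 1, Con 2, Con 3 or CTTN 1 the adjusted p was between 0.119 and 0.165. LAMA3, an alpha chain found in a trimer with it, was at 0.823, 0.699 and 1.07 FPKM in Con and 0.822, 0.507 and 0.688 FPKM in CTTN, with a log2 fold change of -0.76 (adjusted p of 0.156 in edgeR). LAMA1 and LAMA2 had 3 and 35 fragments over the 6 libraries.

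LAMB3 reads were split between 2 start-site groups, sets of transcripts that the deposited annotation assigns to 1 start, called A and B here. Group A held 58.9% of the gene's FPKM over the 6 libraries and was at 3.47, 3.21 and 2.88 FPKM in Con 1, 2 and 3 and 1.43, 1.61 and 0.453 FPKM in CTTN 1, 2 and 3. Group B held 38.3% and was at 1.06, 0.746 and 1.28 FPKM in Con and 1.58, 1.34 and 2.48 FPKM in CTTN. Group A was lower and group B higher in each CTTN library than in any Con library. Of all 35799 start-site groups tested, 23.3% likewise had no overlap of Con and CTTN, counted in CPM. The log2 fold changes were -1.44 ± 0.50 (SE) for A and 0.77 ± 0.32 (SE) for B, and neither passed, each with an adjusted p of 0.478 in edgeR. The dominant transcripts of both groups are over 4 kb long. Because the 2 groups of this gene differed in direction, the stretches of 150 bases that precede their RefSeq starts (GRCh38.p14, minus strand) are shown for 2 of its 3 RefSeq starts. The 4055-base transcript of group B begins at the first start, at base 209652425 of chromosome 1, preceded by chr1:209652426-209652575. A minor 908-base transcript of group A begins 20 bases before the last start, at base 209651374, preceded by chr1:209651375-209651524, and the main transcripts of group A did not begin in a listed stretch. The stretch before the third RefSeq start, at base 209652329 between these, holds none of the motifs searched and is not shown. Capitals mark GGGCGG, the GC box, read as CCGCCC on the other strand, and TGACTCA, the AP-1 consensus.
LAMB3 upstream of start B: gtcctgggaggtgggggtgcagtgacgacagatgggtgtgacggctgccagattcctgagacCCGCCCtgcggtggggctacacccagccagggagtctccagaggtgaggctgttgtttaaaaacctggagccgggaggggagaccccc
LAMB3 upstream of the downstream start: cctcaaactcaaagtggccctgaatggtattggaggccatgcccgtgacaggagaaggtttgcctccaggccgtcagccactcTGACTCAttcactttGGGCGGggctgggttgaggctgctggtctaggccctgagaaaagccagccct
The first stretch holds 1 GC box, 88 to 83 bases before the start. The second one shown holds TGACTCA at 67 to 61 bases and a GC box at 52 to 47 bases before its start, and these do not overlap. On either strand, TGACTCA is in 2.89%, GGGCGG in 36.8% and TATAAA, also searched, in 6.71% of the 35097 RefSeq promoter stretches of the same length. A match of letters does not show that a factor binds there.

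**Figure D4:**
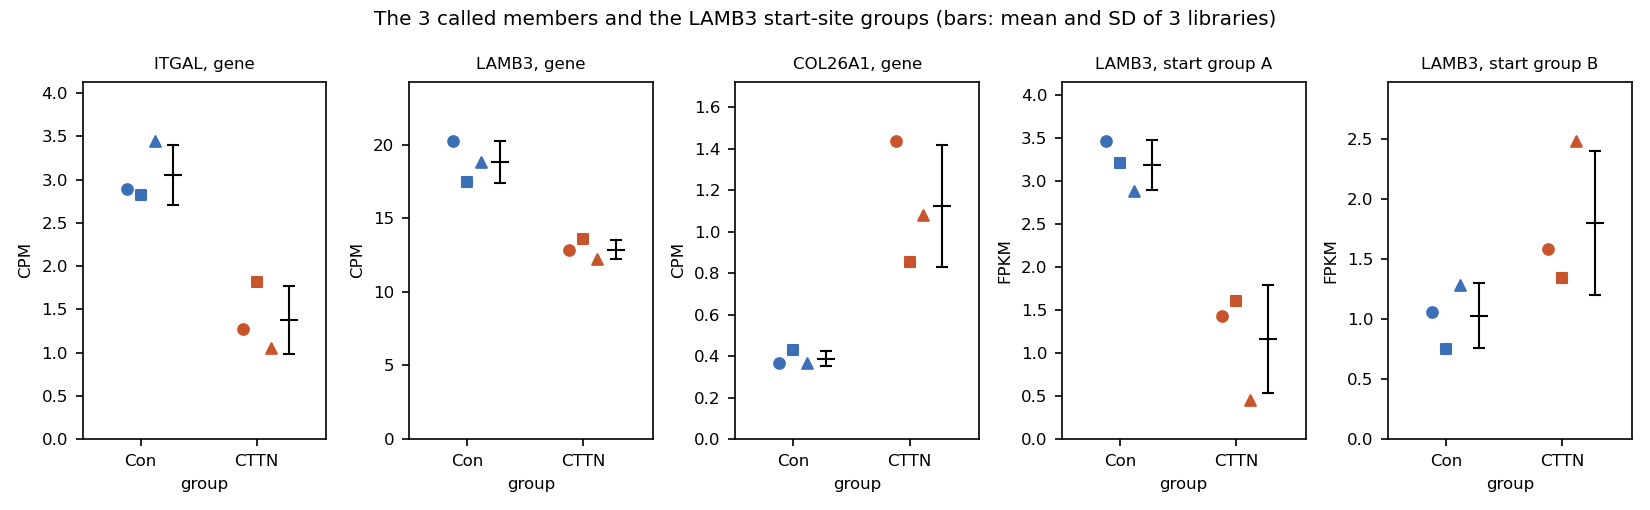
CPM of the 3 called members and FPKM of LAMB3 start-site groups A and B (y axes from 0) in Con and CTTN, where circles, squares and triangles are libraries 1, 2 and 3 and bars give the mean and SD of the 3 libraries. For all 5 panels Con and CTTN do not overlap, as for 38.8% of all genes and 23.3% of all start-site groups tested in CPM. LAMB3 group B is the opposite of group A in direction.

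Collagens made up 44 members, with 23 tested and 8 without a fragment in any library. The other 13 untested collagens had between 1 and 54 fragments over the 6 libraries. In Con, 10 collagens were at 1 FPKM or more, 6 when counted by near-full-length transcripts, and 1 at 10 FPKM or more. In the planned fit 1 collagen was called, higher, and 9 of 23 passed an unadjusted p under 0.05 (30.2% of all genes). The median log2 fold change of the tested collagens was -0.06 in the planned fit and 0.18 with the length offset, so its sign depended on the offset. Groups did not overlap for 11 of the 23, 7 higher and 4 lower, against 38.8% of all genes tested.

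COL26A1, a small matrix collagen with an EMI domain, was the called one and lies at chr7:101362820-101559024 (GRCh38). It had 0.365, 0.43 and 0.368 CPM in Con 1, 2 and 3 and 1.44, 0.854 and 1.08 CPM in CTTN 1, 2 and 3. All 3 CTTN libraries were above all 3 Con libraries, CTTN 2 the least. COL26A1 rose, with a log2 fold change of 1.53 ± 0.28 (SE), 2.89-fold, with an adjusted p of 0.0315 in edgeR, and 1.54 ± 0.28 (SE) with an adjusted p of 0.00835 with the offset. As for ITGAL, the offset was close to 0 at its length, so an equal fold change was fixed in advance. Its log2 ratios in CTTN 1, 2 and 3 were 1.76, 1.04 and 1.38 before the offset and 1.76, 1.04 and 1.41 after it. Without Con 1, Con 2, Con 3 or CTTN 1 the log2 change was between 1.31 and 1.61 and the adjusted p between 0.141 and 0.159 in edgeR. In CTTN 2 alone against Con the log2 change was 1.12. The gene was rare, with 164 fragments over the 6 libraries and 0.119, 0.201 and 0.114 FPKM in Con and 0.555, 0.30 and 0.464 FPKM in CTTN. Transcripts from its main start, 83.8% of its FPKM, were at 0.119, 0.135 and 0.114 FPKM in Con and 0.471, 0.259 and 0.372 FPKM in CTTN. That start coincides with the RefSeq start, which chr7:101362725-101362874 (plus strand, GRCh38.p14) precedes, shown because this start held most of the called gene's FPKM. The start group itself was not called, with a log2 fold change of 1.53 ± 0.35 (SE) and an adjusted p of 0.418 in edgeR.
COL26A1 upstream: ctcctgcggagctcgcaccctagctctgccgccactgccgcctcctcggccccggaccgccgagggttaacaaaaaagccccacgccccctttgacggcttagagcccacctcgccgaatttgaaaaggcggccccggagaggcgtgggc
None of the 3 motifs named above is in these 150 bases, which are 68.0% G or C and hold 15 CG dinucleotides.

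Fibril-associated collagens, which sit on the surface of fibrils, included the most abundant collagens. COL12A1 was at 34.9, 36 and 36.3 FPKM in Con and 43.8, 48.9 and 38.6 FPKM in CTTN. Its CPM were 315, 351 and 366 in Con and 285, 489 and 193 in CTTN, with CTTN 2 the highest and CTTN 3 the lowest of the 6 libraries. The fits gave log2 fold changes of -0.09 ± 0.30 (SE) and 0.26 ± 0.11 (SE) with the offset, and adjusted p values of 0.845 and 0.121 in edgeR. Without CTTN 2 COL12A1 was called lower (-0.52, adjusted p of 0.0192 in edgeR), while the log2 fold change of CTTN 2 alone against Con was 0.51. The start group of a 3135-base transcript was at 9.89, 9.05 and 9.03 FPKM in Con and 22.4, 12.3 and 27.5 FPKM in CTTN. It was higher in each CTTN library than in any Con library, where 23.3% of all start groups tested had no overlap in CPM. The start group of the 11723-base transcript was at 23.6, 25 and 26.1 FPKM in Con and 19.6, 35.3 and 10.3 FPKM in CTTN, with overlap. The short group had a log2 fold change of 1.15 ± 0.29 (SE) with an adjusted p of 0.452 in edgeR, and it was the 1 member start group that DESeq2 called.

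COL9A2 was at 10.3, 8.03 and 9.39 FPKM in Con and 8.61, 6.89 and 12.4 FPKM in CTTN, nearly all from an assembled 1730-base transcript that matched no annotated form in full. Its partners in the collagen IX trimer were COL9A1, with 1 fragment in all, and COL9A3 at 0.502, 0.553 and 0.707 FPKM in Con and 1.27, 0.604 and 1.11 FPKM in CTTN. Among fits with more than a lone CTTN library, only that with the length offset and without CTTN 3 called COL9A2. CTTN 2 alone against Con gave a log2 fold change of -0.34. COL16A1 had 14.3, 13.2 and 16.2 CPM in Con and 19, 16.7 and 20.1 CPM in CTTN. Each CTTN library was above each Con library, with a log2 fold change of 0.36 ± 0.12 (SE) and an adjusted p of 0.111 in edgeR, and COL16A1 rose by 0.37 ± 0.10 (SE) with an adjusted p of 0.0392 with the offset. COL14A1, named after its values were seen, had 0.478, 0.788 and 0.421 CPM in Con and 1.07, 1.76 and 1.08 CPM in CTTN. All CTTN libraries were higher, and the log2 fold change was 1.21 ± 0.33 (SE) with an adjusted p of 0.0826 in edgeR and 1.45 ± 0.28 (SE) with an adjusted p of 0.0109 with the offset.

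Collagen IV forms the basement membrane network from 6 chains in fixed sets. COL4A5 was at 4.97, 5.17 and 5.26 FPKM in Con and 4.1, 4.23 and 3.84 FPKM in CTTN, and COL4A6, its partner in the epithelial network, at 0.0416, 0.0161 and 0.102 FPKM in Con and 0.078, 0.0191 and 0.0653 FPKM in CTTN. COL4A3 and COL4A4, the chains of its other trimer, had 91 and 85 fragments over the 6 libraries. In FPKM, COL4A5 was the most abundant of these 4 chains. It had 20.8, 21.2 and 21 CPM in Con and 14.9, 18.8 and 12 CPM in CTTN, lower in each CTTN library, with a log2 fold change of -0.46 ± 0.15 (SE) and an adjusted p of 0.119 in edgeR. With the length offset COL4A5 fell, at -0.31 ± 0.09 (SE) with an adjusted p of 0.0416. The COL4A5 start groups were at 2.19, 2.9 and 3.03 FPKM in Con and 1.34, 2.67 and 0.53 FPKM in CTTN for the full-length form and at 1.36, 1.41 and 1.21 FPKM in Con and 1.28, 0.972 and 2.01 FPKM in CTTN for a 2737-base form, each with overlap. The row of COL4A2, named after its values were seen, reached 1.85, 2.19 and 2.08 FPKM in Con, but 91.4% of it came from a 1573-base transcript, and the full-length form was at 0.0338, 0.0297 and 0.0401 FPKM in Con and 0.0399, 0.0504 and 0.0459 FPKM in CTTN. COL4A1, its obligate partner in the ubiquitous network, had 43 fragments.

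COL4A5 and COL4A6 lie head to head, with RefSeq starts 380 bases apart, and differed in level by far more than the spread between libraries. The 150 bases before each start are shown for that reason (GRCh38.p14, COL4A5 on the plus strand at chrX:108439688-108439837 and COL4A6 on the minus strand at chrX:108439459-108439608).
COL4A5 upstream: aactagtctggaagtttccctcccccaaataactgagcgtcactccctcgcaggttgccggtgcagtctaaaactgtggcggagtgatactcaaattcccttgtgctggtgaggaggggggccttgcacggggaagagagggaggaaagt
COL4A6 upstream: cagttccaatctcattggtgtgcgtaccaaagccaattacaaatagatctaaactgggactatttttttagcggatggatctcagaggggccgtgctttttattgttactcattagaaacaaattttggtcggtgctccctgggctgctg
Neither of these 2 stretches holds any of the 3 motifs, and their shares of G and C are 55.3% and 43.3%. A transcript of the COL4A5 start group of the full-length form begins at the plus-strand start. COL4A6 has a further RefSeq start, at base 108438422, where transcripts of its full-length start group begin. That stretch, not shown, does hold a GC box, 45 to 40 bases before the start.

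Fibrillar collagens were present at low levels. COL1A1 was at 3.73, 3.36 and 4.22 FPKM in Con and 3.27, 4.26 and 2.83 FPKM in CTTN, with overlapping groups and log2 fold changes of -0.16 ± 0.10 (SE) and 0.08 with the offset. COL1A2, its partner in the common collagen I trimer, had 8 fragments in all, and COL3A1, a row with MIR3606 in it, had 2. The full-length COL1A1 start group was at 2.36, 2.18 and 2.22 FPKM in Con and 2.25, 2.09 and 1.89 FPKM in CTTN, while a start group led by a 549-base transcript was at 1.37, 1.02 and 1.64 FPKM in Con and 0.643, 1.65 and 0.462 FPKM in CTTN. Of the collagen V chains, which join collagen I fibrils and were named after their values were seen, COL5A1 and COL5A2 were called with the offset and not in the planned fit, and COL5A3 had no fragment. COL5A1 had 8.83, 9.32 and 10.3 length-adjusted CPM in Con and 13.1, 11.8 and 12.5 in CTTN, and COL5A2 had 1.49, 1.69 and 1.36 in Con and 2.86, 2.98 and 2.07 in CTTN. On this scale every CTTN library was higher for both chains. COL5A1 rose by 0.39 ± 0.09 (SE) with an adjusted p of 0.0191 and COL5A2 by 0.83 ± 0.19 (SE) with an adjusted p of 0.0203 in edgeR with the offset, against adjusted p values of 0.995 and 0.279 in the planned fit. Without the offset COL5A2 was also called without CTTN 3 (0.78, adjusted p of 0.0463 in edgeR), and CTTN 2 alone against Con gave a log2 fold change of 0.98.

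COL6A1, a chain of the beaded filaments of collagen VI, was named after its values were seen and had 2.05, 1.84 and 2.0 CPM in Con and 4.65, 2.78 and 3.43 CPM in CTTN. Each CTTN library was above each Con library. The log2 fold change was 0.89 ± 0.21 (SE) with an adjusted p of 0.0627 in edgeR, and COL6A1 rose by 0.87 ± 0.20 (SE) with an adjusted p of 0.0192 with the offset. Its partner COL6A2 had 0.59, 0.645 and 0.999 CPM in Con and 1.1, 1.07 and 1.29 CPM in CTTN, again without overlap, and a log2 fold change of 0.63 ± 0.25 (SE) with an adjusted p of 0.152. COL6A3, the third chain of the classic trimer, had 27 fragments in all. COL7A1, the anchoring fibril collagen, whose row holds MIR711, had 4.89, 5.02 and 5.42 CPM in Con and 7.1, 6.86 and 5.98 CPM in CTTN, all CTTN libraries higher. Most of its FPKM in Con, 58.0%, came from a 587-base transcript, and the adjusted p was 0.0923 in edgeR. The transmembrane collagen COL17A1, whose row holds MIR936, had 36 fragments.

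**Figure D5:**
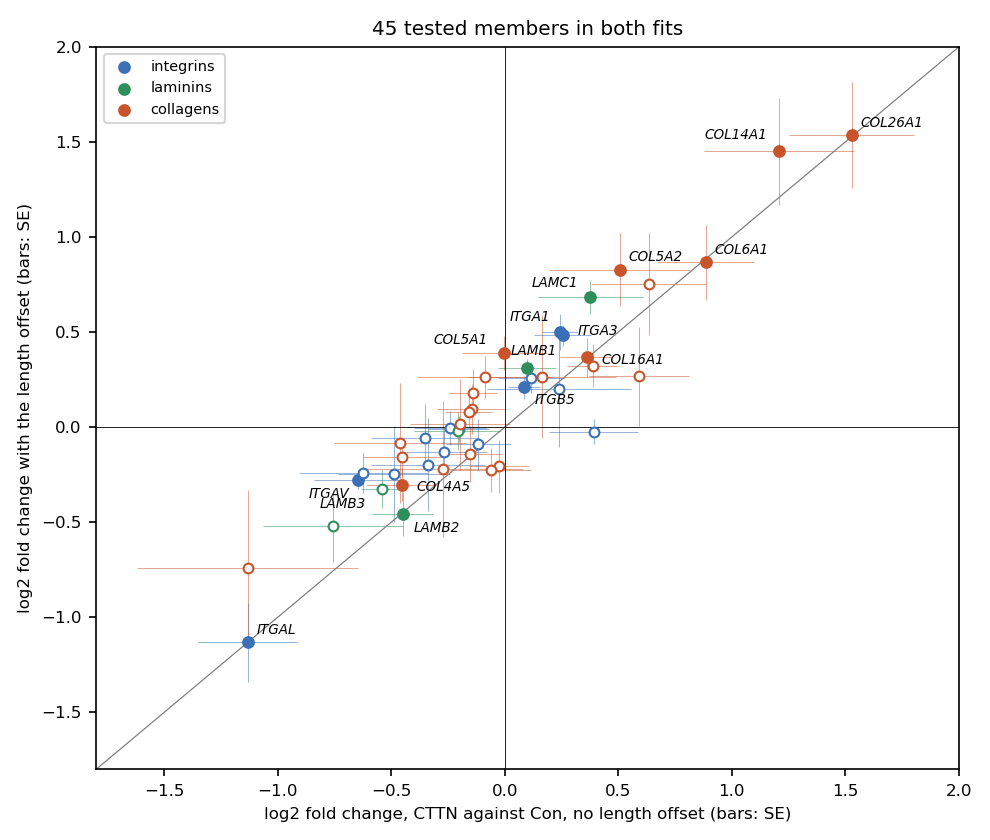
Log2 fold change of the 45 tested members in CTTN against Con in the planned fit (x axis) and with the length offset (y axis), with SE bars, filled points for an adjusted p under 0.05 with the offset, and names for members called in either fit. COL26A1 and ITGAL, at whose lengths the offset is close to 0, lie on the diagonal at the ends. ITGA3, LAMC1, COL5A1 and COL14A1 lie above it.

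At the level of start sites, 549 groups belonged to members and 111 were tested. None was called in edgeR, where 11 members' groups had an unadjusted p under 0.05, and none of the 35799 groups tested over all genes was called either, with 3732 at an unadjusted p under 0.05. DESeq2 called 1088 groups over all genes, 1 of them a member's. Con and CTTN did not overlap for 23.3% of all start groups tested, counted in CPM. Members with more than 1 substantial start group numbered 46. For ITGB5 the main group was at 32.7, 34.4 and 33.1 FPKM in Con and 36.2, 34.8 and 31.8 FPKM in CTTN, and a 1202-base form at 7.25, 9.71 and 12.3 FPKM in Con and 10, 10.7 and 8.58 FPKM in CTTN. The LAMB2 group of the full-length form was at 22.7, 23.5 and 25 FPKM in Con and 16, 20.6 and 10.9 FPKM in CTTN, below Con in each CTTN library. A LAMB2 group led by a 412-base form varied widely within groups, at 18.1, 7.59 and 3.56 FPKM in Con and 14.4, 3.21 and 31.5 FPKM in CTTN. For LAMB1, a group led by a 1540-base form was at 0.591, 0.538 and 0.433 FPKM in Con and 2.16, 0.135 and 16 FPKM in CTTN, with CTTN 3 far above the other libraries, CTTN 1 next and CTTN 2 lowest. LAMC1 showed its main group at 2.47, 3.63 and 5.15 FPKM in Con and 2.96, 6.71 and 0.904 FPKM in CTTN, with wide overlap.

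The proteins that work with the members were read from 5 lists, 83 genes in 82 rows, of which 7 were called. Tested were 24 adaptors and kinases, 10 other receptors, 18 genes of collagen modification, 8 of propeptide cleavage and 10 matrix partners. The counts are thus out of fewer than 83 genes, while the shares are of genes tested. The number of calls was 1 without Con 1, 1 without Con 2, 0 without Con 3 and 0 without CTTN 1. It was 41 without CTTN 2 (47.1% of all genes) and 11 without CTTN 3 (8.55% of all genes). With all libraries it was 17 by DESeq2, and 31 had an unadjusted p under 0.05 in edgeR. Over all genes the shares were 4.46% called, 14.4% by DESeq2, 30.2% at an unadjusted p under 0.05 and 18.7% called with the length offset, which called 26 of these genes. Among enzymes and chaperones of collagen modification, folding and export, 4 of 18 tested were called, all higher, against 2.43% higher of all genes, and the median log2 fold change was 0.25 (0.16 with the length offset) against 0.01 for all genes tested. P3H3, a prolyl 3-hydroxylase family gene in a row merged with GPR162, was at 0.405, 0.397 and 0.60 FPKM in Con and 1.18, 1.17 and 1.56 FPKM in CTTN, with an adjusted p of 0.0313 in edgeR. PLOD1, a lysyl hydroxylase of collagen, was at 39.3, 39.6 and 40.3 FPKM in Con and 53.5, 48.4 and 53.8 FPKM in CTTN, and P3H1 at 2.14, 2.26 and 2.41 FPKM in Con and 3.31, 3.0 and 3.38 FPKM in CTTN. These genes were higher in each CTTN library, with log2 fold changes of 1.34, 0.35 and 0.48, and PLOD3 was the other call. PLOD2 and MIA3 of the same list were lower in each CTTN library in CPM and not called. Their log2 fold changes were -0.31 and -0.44 (adjusted p of 0.0862 and 0.13 in edgeR). With the length offset the list had 6 higher and 1 lower, against 9.83% and 8.87% of all genes. The lower one was MIA3 (-0.38, adjusted p of 0.0489 in edgeR).

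Of the basement membrane partners and other matrix ligands, 10 were tested, with 1 higher and 1 lower (2.43% and 2.03% of all genes), and with the length offset 4 higher and 2 lower (9.83% and 8.87% of all genes). The list's median log2 fold change was -0.10 in the planned fit and 0.17 with the offset. FBLN2, a fibulin that binds laminin and fibronectin, was at 31.7, 34.5 and 35.1 FPKM in Con and 51.8, 49.4 and 48.3 FPKM in CTTN. TGFBI, a matrix protein bound by integrins, was at 9.45, 7.23 and 8.17 FPKM in Con and 4.32, 4.66 and 5.92 FPKM in CTTN. FBLN2 rose by 0.53 ± 0.09 (SE) on the log2 scale (adjusted p of 0.0248) and TGFBI fell, at -1.06 ± 0.09 (SE) (adjusted p of 0.00413) in edgeR, and neither gene's groups overlapped. The nidogens NID1 and NID2, which bridge laminin and collagen IV and were named after their values were seen, were at or under 0.0119 FPKM in every library. The ligand FN1 had 43.6, 45.4 and 47.1 CPM in Con and 26.7, 42.5 and 17.4 CPM in CTTN, lower in each CTTN library and CTTN 2 the least. Its log2 fold change was -0.65 ± 0.28 (SE) (adjusted p of 0.171), and -0.41 ± 0.15 (SE) (adjusted p of 0.0803) with the offset, in edgeR. In FPKM the FN1 groups overlapped, at 6.99, 5.97 and 5.38 in Con and 6.82, 5.2 and 6.47 in CTTN. NPNT was lower in each CTTN library in CPM. Its log2 fold change was -0.55 ± 0.13 (SE) (adjusted p of 0.0618), and -0.43 ± 0.07 (SE) (adjusted p of 0.0064) with the offset, in edgeR. In propeptide cleavage and cross-linking, 1 of 8 tested was called (4.46% of all genes), PCOLCE, an enhancer of procollagen C-proteinase, at 9.47, 10 and 9.06 FPKM in Con and 14, 12.8 and 16.5 FPKM in CTTN with a log2 fold change of 0.61 ± 0.13 (SE) and an adjusted p of 0.0477 in edgeR. With the length offset PCOLCE, whose transcript is 883 bases long, was at 0.27 ± 0.11 (SE) with an adjusted p of 0.116 and was not called, while the list had 2 higher (9.83% of all genes).

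No integrin adaptor or focal adhesion kinase was called among 24 tested in edgeR, where 7 had an unadjusted p under 0.05 (30.2% of all genes), and DESeq2 called 4. PARVB and PARVG share 1 row in that list. ZYX, a protein of focal adhesions, was its most abundant gene, at 80.9, 87.5 and 88.7 FPKM in Con and 69.8, 61.9 and 79.4 FPKM in CTTN. It was lower in each CTTN library, with a log2 fold change of -0.33 ± 0.08 (SE) and an adjusted p of 0.0726 in edgeR. Other matrix receptors gave no call among 10 tested in edgeR, with 5 at an unadjusted p under 0.05 and 1 call by DESeq2. BCAM, a receptor for the LAMA5 chain, was at 121, 115 and 124 FPKM in Con and 157, 133 and 176 FPKM in CTTN, with a log2 fold change of 0.31 ± 0.09 (SE) and an adjusted p of 0.0959 in edgeR. CD151, the tetraspanin partner of laminin-binding integrins, was at 167, 166 and 165 FPKM in Con and 226, 182 and 268 FPKM in CTTN, higher in each CTTN library, with an adjusted p of 0.113. DDR1, a collagen receptor kinase in a row with MIR4640, was at 122, 127 and 130.4 FPKM in Con and 106, 114 and 96.1 FPKM in CTTN, lower in each CTTN library, with an adjusted p of 0.117. In the fit with the length offset the adaptors had 4 higher and 3 lower and the receptors 2 higher and 2 lower, against 9.83% and 8.87% of all genes. ZYX (-0.36, adjusted p of 0.00456), BCAM (0.31, 0.0163), CD151 (0.23, 0.0275) and DDR1 (-0.14, 0.0425) were called in that fit.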

How the data were processed

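Polyadenylated RNA of 6 SKBR3 libraries, 3 per group, was sequenced as read pairs after stranded preparation. Per the labels, the authors used bcl2fastq 2.20.0, Trimmomatic, STAR and Cufflinks with GRCh38. The study's methods name another trimmer and hg19, and gene loci here fit GRCh38. The deposited estimated counts are fragments divided by a library factor in the deposited sample table. The factor was undone, which gave whole numbers within 0.02 for 90.7% to 98.2% of values above 0, and the counts were rounded. The deposited FPKM values were used for levels. Whether strand was used in counting is not given in the sources used here, so rows merged over several genes are uncertain.

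CTTN was compared with Con in R 4.3.3 by edgeR 4.0.16 (TMM, filterByExpr, quasi-likelihood test, Benjamini-Hochberg over all genes or start groups, call under 0.05). DESeq2 1.42.0 and limma 3.58.1 on log2(FPKM + 0.1) or log2(FPKM + 1) were alternatives, with other scalings, no filter, a 1.5-fold minimum and each library left out. The length offset was a lowess smooth of each library's log ratio against FPKM-weighted transcript length. Within-group pairs differed by more than sampling noise in every case (mean chi-square per gene 4.56 to 6.94 for Con pairs and 43.3 to 163 for CTTN pairs, where 1 is noise), so no library was merged. Named with values are called members, the 5 highest in mean FPKM per family, their partner subunits, rows shared with other genes, substantial start groups of the first 2 kinds and up to 3 list members per direction by smallest adjusted p, with exceptions marked in the text. RefSeq promoters were found for 56 of the 80 members. Members and lists were chosen with earlier results of these data known. The scripts were tested on simulated data. The depth gives 0.0727 to 0.0860 CPM as the limit of a count of 0, for counting error only. Members outside the rules for naming, and 1 within them, are counted in the totals and not reported here.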

Additional observations from a re-analysis of the deposited data

How the results depend on the processing

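Each count of calls moved by over 1.5 times under several alternatives, and the causes were not tested. Against 643 genes, 3 members and 7 genes of the pathway lists, DESeq2 called 2074, 8 and 17, and limma called 180, 0 and 2 with 0.1 added and 185, 0 and 2 with 1 added, where 12 members had an unadjusted p under 0.05 each time. No filter called 976 genes and 5 members, library totals alone 4 list genes, and the 1.5-fold minimum 3 list genes. Leaving out each library in turn gave 15 to 6925 genes, 0 to 18 members and 0 to 41 list genes, the highest without CTTN 2. Of the alternatives chosen after seeing the data, the length offset gave 2695, 15 and 26, CTTN 2 alone 2255, 15 and 24, and the offset without CTTN 3 3136, 21 and 33. Start groups of members stayed at 0 calls in edgeR under each alternative run on them, and DESeq2 gave 1. Limma and the offset without CTTN 3 were not run on start groups. CTTN itself stayed higher, by 1.10 to 1.57 on the log2 scale over the fits that left out a library, and it missed the threshold without Con 1, Con 2, Con 3 or CTTN 1. Of 540 values of single members under the alternatives other than those chosen after seeing the data, 493 kept their side of the threshold and their sign where called, 18 fell short of it and 29 passed it, and no call changed sign. COL12A1 was called in opposite directions. It was called at -0.52 when CTTN 2 was left out. Under the alternatives chosen after seeing the data, COL12A1, at -0.09 in the planned fit, was called at 0.37 with the offset and without CTTN 3. With CTTN 2 alone against Con COL12A1 was at 0.51. COL5A1, near 0 in the planned fit, was called at 0.39 with the offset and 0.39 with the offset and without CTTN 3. No paired analysis was possible because the control columns carry no replicate number on which the labels and the deposited sample table coincide. The 35 untested members had too few fragments to test, and 11 of them had none. Whether this reflects the depth or absent transcripts was not tested.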
